A study of Apostichopus japonicus with 12 samples.

Results

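Transcript levels in respiratory trees of Apostichopus japonicus, a sea cucumber, were compared between heat plus low oxygen (26 °C and 2 mg/L dissolved oxygen, 3 libraries) and a normal control group (3 libraries). They were measured by RNA sequencing after removal of ribosomal RNA and deposited as FPKM, which scales fragments to the length of a feature and to the size of a library. Of 59494 features in the table, 39735 had at least 0.5 FPKM in at least 3 of these 6 libraries and were tested. The study holds 6 further libraries, 3 under heat alone (26 °C) and 3 under low oxygen alone (2 mg/L), which also entered the estimate of the spread. The sources used here do not give the water conditions of the control group, the length of exposure, or the number, age and sex of the animals. Nothing in the labels says that libraries of a group came from separate animals, so the p-values cover the variation among these libraries, which may be technical.

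The respiratory trees are a pair of branched, thin-walled sacs that open into the cloaca and are filled and emptied with sea water, and they take up much of the oxygen the animal uses. Warm water holds less oxygen while it raises the metabolic rate of an animal that cannot regulate its body temperature, so the 2 stresses often meet in summer. In animals at large, heat unfolds proteins and induces chaperones through heat shock factors, and low oxygen slows the prolyl hydroxylases that mark hypoxia-inducible factors for destruction. Which of the features below belong to these pathways cannot be said, because the table holds identifiers with the prefixes AJAP (28586 features) and MSTRG (30908 features) and pairs none with a gene name. Looked up in RefSeq's genes of assembly ASM3797524v1, 0 of them were found. For the same reason no tissue marker could be checked, and no class, coding or noncoding, is given to any feature.

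The libraries under heat plus low oxygen held 21035631, 22022672 and 21751678 reads over all features, and the control libraries 22036322, 20384465 and 23240088. A value near 0.5 FPKM rested on a median of 9 reads. Over the features tested, log2 values correlated at 0.842 to 0.863 between libraries under heat plus low oxygen and at 0.843 to 0.853 between control libraries. Across the 2 groups the 9 correlations ran from 0.793 to 0.836, so every pair from the same group was more alike than any pair from different groups. Features are not independent replicates, and these correlations are a description.

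Of the 39735 features tested, 1071 (2.70%) differed between the heat plus low oxygen and control libraries at an adjusted p under 0.05 in limma's test. Under the stresses 504 were higher (1.27% of those tested) and 567 lower (1.43%). The median size of the change was 2.01 on the log2 scale among these features and 0.475 among all features tested, and the median change of all features was -0.01. In all 1071 the 3 libraries under heat plus low oxygen lay entirely above or entirely below the 3 control libraries, which was true of 8579 features tested, 21.6%. At an unadjusted p under 0.05 there were 6857 features, 17.3%. Because whole tissue was sequenced, fewer cells of a type and less RNA per cell cannot be told apart. Log2 changes are those of FPKM + 0.5, a scale on which the change of scarce features comes out too small.

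**Figure D1:**
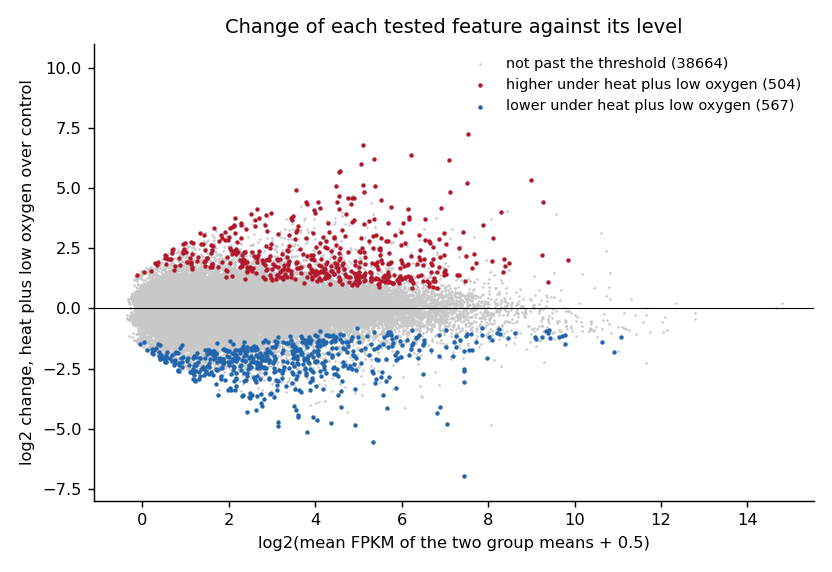
Each point is 1 of the 39735 features tested. The horizontal axis gives log2 of the mean FPKM of both groups + 0.5, and the vertical axis the log2 change of heat plus low oxygen over control. Red points (504) were higher and blue points (567) lower at an adjusted p under 0.05. Called features lie at low and high levels, though not among the few most abundant ones, and at low levels only large changes were called.

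Most called changes were between 1 and 3 on the log2 scale. Sizes of 1 to 2 were found in 263 higher and 251 lower features, and sizes of 2 to 3 in 144 higher and 239 lower ones. Sizes of 3 to 4 were found in 55 higher and 45 lower features. Changes of 4 or more numbered 35 higher and 21 lower, and only 7 higher and 11 lower features were called with a change under 1. The largest rise was 7.25 and the largest fall 6.96 on the log2 scale.

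**Figure D2:**
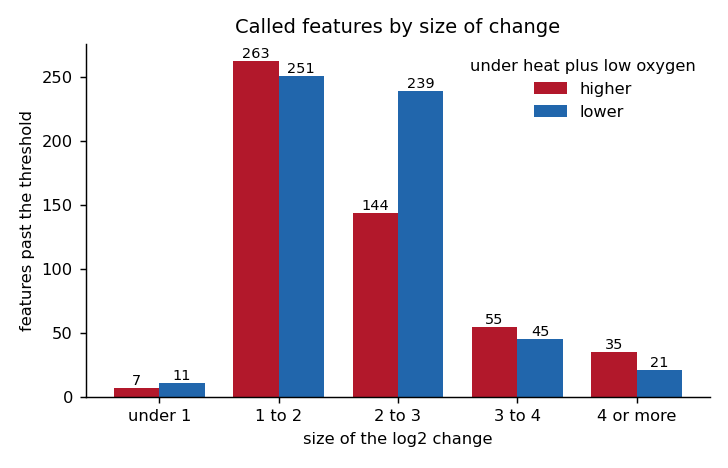
Bars give the number of features past the threshold by the size of the log2 change, red for those higher and blue for those lower under heat plus low oxygen than in the control group. Lower features outnumber higher ones at sizes of 2 to 3 (239 against 144), and higher ones are more numerous at 4 or more (35 against 21).

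Features were called by their difference between the groups, so the median levels in the 2 groups restate the direction of the call and give its size. The 504 higher features had a median mean level of 30.2 FPKM under heat plus low oxygen and 5.85 FPKM in the control group. The 567 lower features had a median of 2.40 FPKM under heat plus low oxygen and 14.5 FPKM in the control group. By mean level over the 12 libraries, 97 higher and 179 lower features lay between 1 and 5 FPKM, 151 and 212 between 5 and 20, and 193 and 97 between 20 and 100. Above 100 FPKM the numbers were 43 higher and 46 lower. The share called was 0.953% of the 5563 features under 1 FPKM, 1.64% of those at 1 to 5, 3.30% at 5 to 20, 5.51% at 20 to 100, and 8.03% of the 1109 features above 100 FPKM. Among the 100 features with the highest control mean (at least 803 FPKM) 12 were called and all 12 were lower under heat plus low oxygen. Among the 100 with the highest mean under heat plus low oxygen (at least 628 FPKM) 8 were called, 5 higher and 3 lower. Ranking by the level of 1 group favours the direction in which that group is high.

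AJAP features were called more often than MSTRG features. Of 21060 AJAP features tested 748 were called, 3.55%, with 343 higher (1.63%) and 405 lower (1.92%). Of 18675 MSTRG features tested 323 were called, 1.73%, with 161 higher (0.862%) and 162 lower (0.867%). The median size of a called change was 1.90 in AJAP and 2.13 in MSTRG features on the log2 scale. MSTRG features were less abundant, with a median group mean among those tested of 2.11 FPKM under heat plus low oxygen and 2.16 FPKM in the control group, against 7.14 and 7.23 FPKM in AJAP features. They also varied more between replicates. Their median SD of log2 values was 0.623 under heat plus low oxygen and 0.645 in the control group, while that of AJAP features was 0.410 and 0.418. The part of level and spread in the difference between the classes was not tested. Called features had a median recovered length of 1062 bases, and all tested features one of 993 bases.

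The AJAP features with the largest rises were AJAP04789 and AJAP20068. AJAP04789 stood at 248, 158 and 690 FPKM under heat plus low oxygen, and at 3.19, 0.508 and 1.56 FPKM in the control libraries. Every stressed library was far above every control library, although the stressed ones spread more than 4-fold among themselves. Its means were 365 ± 285 and 1.75 ± 1.35 FPKM (SD, n = 3 each), a log2 change of 7.25 (SE 0.74, adjusted p = 0.0026 in limma's test), and the call held in all 23 alternative settings. Without stressed replicate 3 the change was 6.65. Under heat alone it stood at 57.1, 197 and 49.8 FPKM, and under low oxygen alone at 24.1, 6.23 and 4.76 FPKM. All these libraries were above the control ones and below the combined mean, though heat replicate 2 exceeded combined replicate 2. The log2 change from the control was 5.40 under heat alone (adjusted p = 0.044 in limma's test). Under low oxygen alone it was 2.28 (adjusted p = 0.17).

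AJAP20068 was at 67.7, 105 and 29.7 FPKM under heat plus low oxygen, and at 0, 0.107 and 0 FPKM in the control libraries. The control libraries held 2 reads of it in all against 4015 under the stresses, a depth-scaled ratio of 2034 (exact 95% interval from counting error alone, 563 to 16800). The log2 change was 6.82 (SE 1.21, adjusted p = 0.018 in limma's test). The call held in 18 of 23 alternatives (adjusted p from 0.00067 to 0.13). It was lost with voom (0.13) and without stressed replicate 1 (0.05004), stressed replicate 2 (0.072), control replicate 1 (0.053) or control replicate 3 (0.058). In the heat-alone group replicate 2 stood at 40.8 FPKM and the others at 0.961 and 0 FPKM. Low oxygen alone left AJAP20068 at 2.12, 7.58 and 3.07 FPKM, a change of 2.99 over the control (adjusted p = 0.27 in limma's test).

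The largest AJAP falls left traces of the transcript under the stresses. AJAP07200 was at 0.572, 0.624 and 1.82 FPKM under heat plus low oxygen and at 103, 24.6 and 107 FPKM in the control libraries. All stressed libraries were below 2 FPKM and no control library was below 24 FPKM. It fell by 5.54 in log2 units (SE 0.84, adjusted p = 0.011 in limma's test), to a mean of 1.00 ± 0.704 FPKM against 78.2 ± 46.4 FPKM (SD, n = 3 each), and lost the call only with voom among 23 alternatives (adjusted p = 0.11, range 0.0062 to 0.11). Without control replicate 2 the change was -6.23. Its mean was 52.3 ± 31.7 FPKM under heat alone, where the change from the control was -0.58 (adjusted p = 0.86), and 6.31 ± 5.84 FPKM under low oxygen alone, where it was -3.78 (adjusted p = 0.067).

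AJAP03163 was at 0, 0.213 and 0.259 FPKM under heat plus low oxygen and at 12.7, 39.3 and 986 FPKM in the control libraries. Its groups did not overlap, but its control mean of 346 ± 555 FPKM (SD, n = 3) came mostly from control replicate 3. It fell by 6.96 in log2 units (SE 1.25, adjusted p = 0.019 in limma's test). Without control replicate 3 the change was -5.15 and without control replicate 1 it was -8.26, both past the threshold. The call held in 19 of 23 alternatives (adjusted p from 0.017 to 0.37). It was lost with voom (0.37), in a fit of the 6 libraries alone (0.066), and without stressed replicate 1 (0.053) or 2 (0.065). The single-stress groups were low as well, with changes from the control of -5.67 under heat alone (adjusted p = 0.18 in limma's test) and -5.31 under low oxygen alone (0.079).

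The features with the smallest p among the higher and among the lower ones were AJAP17693 and AJAP08131, and AJAP06528 and AJAP19892. AJAP17693 stood at 285, 300.5 and 223 FPKM under heat plus low oxygen and at 6.36, 7.63 and 13.6 FPKM in the control libraries. Within each group its libraries lay close together compared with the gap between the groups. Its log2 change was 4.86 (SE 0.42, adjusted p = 0.0026 in limma's test). Under heat alone its libraries were at 73.5, 149 and 43.4 FPKM, a change of 3.09 over the control (adjusted p = 0.044), and under low oxygen alone at 11.2, 7.56 and 15.3 FPKM, a change of 0.31 (adjusted p = 0.79).

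AJAP08131 was at 70.9, 43.7 and 56.8 FPKM under heat plus low oxygen and at 8.31, 9.95 and 9.95 FPKM in the control libraries. It rose by 2.52 in log2 units (SE 0.25, adjusted p = 0.0026 in limma's test), and its means were 57.1 ± 13.6 and 9.40 ± 0.949 FPKM (SD, n = 3 each). Its single-stress means, 36.0 ± 8.50 FPKM under heat alone and 18.1 ± 1.97 FPKM under low oxygen alone, stood between those of the other groups. The log2 change from the control was 1.86 under heat alone (adjusted p = 0.044 in limma's test). Under low oxygen alone it was 0.91 (adjusted p = 0.12).

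AJAP06528 was at 4.88, 3.69 and 2.88 FPKM under heat plus low oxygen and at 21.0, 25.01 and 29.9 FPKM in the control libraries. The groups were far apart relative to their spread, and it fell by 2.59 in log2 units (SE 0.26, adjusted p = 0.0026 in limma's test). It was also low under heat alone, at 6.72 ± 0.61 FPKM, a change from the control of -1.83 (adjusted p = 0.053). Low oxygen alone left AJAP06528 at 10.7 ± 1.36 FPKM, a change of -1.19 (adjusted p = 0.067). AJAP19892 was at 7.32, 4.49 and 7.11 FPKM under heat plus low oxygen and at 32.6, 34.9 and 39.8 FPKM in the control libraries, and fell by 2.44 (SE 0.25, adjusted p = 0.0026 in limma's test). Heat alone left it at 19.2 ± 3.53 FPKM and low oxygen alone at 24.0 ± 3.52 FPKM (SD, n = 3 each), changes from the control of -0.89 (adjusted p = 0.27) and -0.57 (adjusted p = 0.31). AJAP17693, AJAP08131, AJAP06528, AJAP19892 and AJAP04789 were the 5 of 19 named features that were called in every alternative tried. All but AJAP04789 were named for their smallest p, and the alternatives reuse the same libraries, so the choice itself favours this outcome.

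**Figure D3:**
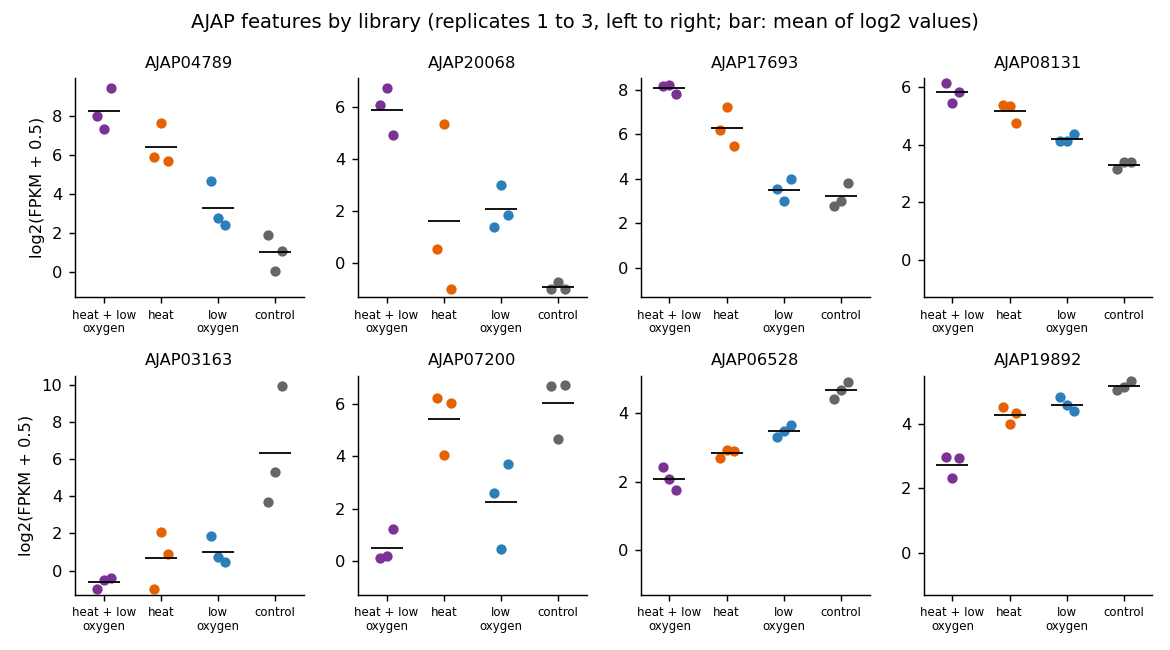
Each panel shows 1 AJAP feature, with log2(FPKM + 0.5) on the vertical axis and 3 libraries per group, and the bar is the mean of the log2 values. The upper row holds features higher and the lower row features lower under heat plus low oxygen than in the control group, the left pair in each row by size of change and the right pair by smallest p. In every panel the combined and control libraries do not overlap, which was a condition for naming a feature. The single-stress groups stand at various levels, for example low oxygen alone next to the control for AJAP17693 and heat alone next to the control for AJAP07200.

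Among MSTRG features the largest rise was that of MSTRG.43287, at 108, 5.93 and 24.1 FPKM under heat plus low oxygen and with 0 reads in the 3 control libraries. The stressed libraries differed by more than 10-fold among themselves. With 0 control reads, the feature passed the filter only because all 3 stressed libraries held at least 0.5 FPKM. It was at least 402-fold higher if the control group is set at 3 reads in all, and its adjusted p in limma's test was 0.008 (log2 change 5.69, SE 0.77). Only voom lost the call among 23 alternatives (adjusted p = 0.11, range 0.0053 to 0.11). Without stressed replicate 1 the change was 4.65 and the bound 133-fold, and without stressed replicate 2 they were 6.69 and 581-fold. Heat alone gave a mean of 1.52 ± 0.54 FPKM and low oxygen alone one of 0.176 ± 0.222 FPKM (SD, n = 3 each).

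MSTRG.81280 was at 44.3, 47.3 and 35.9 FPKM under heat plus low oxygen and at 0.708, 1.21 and 0.439 FPKM in the control libraries. Its stressed libraries were alike, and its log2 change was 5.10 (SE 0.92, adjusted p = 0.019 in limma's test). The call held in 19 of 23 alternatives (adjusted p from 0.0006 to 0.071), and was lost without stressed replicate 1 (0.051) or 2 (0.071) and without control replicate 1 (0.055) or 3 (0.063). In the heat-alone group replicate 2 was at 15.9 FPKM and the other replicates at 0.845 and 0 FPKM, while the low-oxygen libraries were at 10.4, 11.3 and 7.10 FPKM.

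MSTRG.78549 showed the largest MSTRG fall, with 0, 0 and 0.644 FPKM under heat plus low oxygen and 50.6, 15.4 and 14.5 FPKM in the control libraries. It fell by 5.13 in log2 units (SE 0.64, adjusted p = 0.0056 in limma's test), and lost the call only with voom among 23 alternatives (adjusted p = 0.071, range 0.0027 to 0.071). In both single-stress groups it was still present, at 11.3 ± 7.61 FPKM under heat alone and 11.7 ± 2.83 FPKM under low oxygen alone (SD, n = 3 each). Neither of these levels passed the threshold against the control (log2 change -1.27, adjusted p = 0.50 for heat, and -0.94, adjusted p = 0.53 for low oxygen).

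MSTRG.114270 was at 0.587, 0.140 and 0.284 FPKM under heat plus low oxygen and at 2.80, 75.1 and 42.6 FPKM in the control libraries. Control replicate 1 was close to the stressed libraries, and the fall of 4.76 (SE 1.11, adjusted p = 0.045 in limma's test) held in only 11 of 23 alternatives (adjusted p from 0.021 to 0.31). Among left-out libraries the call was lost without stressed replicate 1 (0.085), 2 (0.13) or 3 (0.11), control replicate 2 (0.13) or 3 (0.13), hypoxic replicate 2 (0.063) or 3 (0.056), or thermal replicate 3 (0.057). It was also lost with voom (0.31), in a fit of the 6 libraries alone (0.090), with no filter (0.079) and with a pseudocount of 1 (0.056). The change was -6.13 without control replicate 1 and -3.87 without control replicate 2.

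Some features had no reads at all on one side. Among the called features 15 had 0 reads in all control libraries, 14 of them MSTRG, and 30 had 0 reads in all libraries under heat plus low oxygen, 21 of them MSTRG. Among all 39735 features tested 44 had 0 reads in the control libraries and 82 had 0 reads under heat plus low oxygen, 38 and 60 of them MSTRG. Such features passed the filter only through the group in which they are present. Only 2 of these higher and 8 of these lower features reached a mean of 5 FPKM on the other side. MSTRG.114263 was at 9.25, 2.41 and 23.2 FPKM under heat plus low oxygen and had 0 reads in the control libraries, at least 86.1-fold higher on the same floor. Its adjusted p was 0.040 in limma's test (log2 change 4.13, SE 0.94), and the call held in 13 of 23 alternatives (adjusted p from 0.023 to 0.14). It was lost without any 1 of the 6 libraries compared (0.094, 0.058 and 0.12 without stressed replicates 1, 2 and 3, and 0.11, 0.093 and 0.10 without control replicates 1, 2 and 3) and without hypoxic replicate 2 (0.060). Voom (0.14), the fit of 6 libraries (0.054) and no filter (0.074) also ended it. The change was 4.93 without stressed replicate 2 and 3.41 without stressed replicate 3, where the bound was 42.7-fold.

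The features with no reads under heat plus low oxygen and the highest control means were AJAP18483 and AJAP05169. AJAP18483 had 0 reads in the stressed libraries and 2.05, 8.44 and 85.3 FPKM in the control libraries, at least 1359-fold lower with the stressed group set at 3 reads in all. AJAP05169 likewise had 0 reads under heat plus low oxygen and 1.73, 8.70 and 58.9 FPKM in the control libraries, at least 314-fold lower. In both, as in AJAP03163, control replicate 3 was the highest control library and replicate 1 the lowest. Without control replicate 3 the bounds were 208-fold for AJAP18483 and 66.2-fold for AJAP05169, and the log2 changes -3.26 and -3.18. Without control replicate 1 the log2 changes were -5.79 and -5.55. Both were also at or below 0.5 FPKM in every single-stress library, and AJAP05169 had 0 reads in the 3 heat-alone libraries. In limma's test the log2 changes were -4.65 (SE 0.93, adjusted p = 0.027) for AJAP18483 and -4.42 (SE 0.85, adjusted p = 0.024) for AJAP05169. AJAP18483 kept its call in 17 of 23 alternatives (adjusted p from 0.016 to 0.24) and AJAP05169 in 16 of 22 (0.0098 to 0.16). Without stressed replicates 1, 2 and 3 and control replicate 2 the adjusted p-values were 0.065, 0.086, 0.068 and 0.055 for AJAP18483, and 0.059, 0.077, 0.062 and 0.055 for AJAP05169. With voom they were 0.24 and 0.16, and in the fit of 6 libraries 0.11 and 0.10.

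The largest differences in FPKM between the group means were those of 4 AJAP features. AJAP27745 was at 1275, 1180 and 2018 FPKM under heat plus low oxygen and at 348, 438 and 290.0 FPKM in the control libraries. Every stressed library held more than 2-fold the highest control level, and the means were 1491 ± 459 and 359 ± 74.4 FPKM (SD, n = 3 each). The log2 change of 2.03 (SE 0.46, adjusted p = 0.039 in limma's test) held in 12 of 23 alternatives (adjusted p from 0.017 to 0.12). It was lost without any 1 of the 6 libraries compared (0.077, 0.092 and 0.12 without stressed replicates 1, 2 and 3, and 0.11, 0.071 and 0.11 without control replicates 1, 2 and 3), without hypoxic replicate 2 (0.055) and without thermal replicate 1 (0.052). No filter (0.075), a replicate block (0.058) and voom (0.054) also ended the call. Under heat alone AJAP27745 was at 835, 2088 and 607 FPKM, a change of 1.53 over the control (adjusted p = 0.29 in limma's test). Under low oxygen alone it was at 1513, 667 and 599 FPKM, a change of 1.26 (adjusted p = 0.22). All single-stress libraries were thus above every control library, and heat replicate 2 was above every combined library.

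AJAP15038 was at 524, 1456 and 1551 FPKM under heat plus low oxygen and at 61.0, 48.1 and 39.5 FPKM in the control libraries. Its log2 change was 4.42 (SE 0.77, adjusted p = 0.018 in limma's test), and the call held in 20 of 23 alternatives (adjusted p from 0.002 to 0.069). It was lost without stressed replicate 2 (0.069) or 3 (0.052) or control replicate 3 (0.060). Low oxygen alone left it at 748 ± 321 FPKM (SD, n = 3), a change of 3.81 over the control (adjusted p = 0.053). Under heat alone it was at 93.9, 679 and 50.4 FPKM, where replicate 2 again stood apart from the other heat libraries.

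AJAP05921 and AJAP09677 lost the most FPKM. AJAP05921 was at 1011, 600 and 971 FPKM under heat plus low oxygen and at 3125, 2106 and 3718 FPKM in the control libraries, and fell by 1.79 in log2 units (SE 0.36, adjusted p = 0.028 in limma's test). AJAP09677 was at 1300, 1082 and 1561 FPKM under heat plus low oxygen and at 3226, 2733 and 2967 FPKM in the control libraries, and fell by 1.19 (SE 0.25, adjusted p = 0.034 in limma's test). In both every stressed library was well below the lowest control library. AJAP05921 kept its call in 16 of 23 alternatives (adjusted p from 0.016 to 0.10), losing it without stressed replicates 1 (0.054), 2 (0.10) and 3 (0.058) and without control replicates 1 (0.085) and 3 (0.089). AJAP09677 kept its call in 13 of 23 (0.020 to 0.12), losing it without stressed replicates 1 (0.078), 2 (0.12) and 3 (0.052), without control replicates 1 (0.10), 2 (0.063) and 3 (0.087), and without hypoxic replicate 2 (0.052). With no filter the adjusted p-values were 0.061 for AJAP05921 and 0.092 for AJAP09677, and in the fit of 6 libraries 0.060 and 0.093. Quantile scaling ended the call of AJAP09677 (0.085).

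Called MSTRG features had a called neighbour by number more often than MSTRG features were called at all, and 34 of the 323 lay in runs of consecutive numbers that moved in the same direction. Of the called MSTRG features whose neighbour by number was also tested (201 cases, counting each side), 18.9% had a called neighbour, while 1.73% of tested MSTRG features were called. Both members were called in 19 such pairs, and in 18 of them they moved in the same direction, 12 of these to higher levels. For AJAP numbers the share was 3.94% against 3.55%, and 9 of 21 called pairs moved in the same direction. The sources used here do not say what the numbers stand for. Neighbouring MSTRG features may share reads or a transcript, so they are not independent.

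A pair and 2 runs of 3 are described here, chosen after their values were seen. MSTRG.81281, next in number to MSTRG.81280, was at 53.8, 39.4 and 39.9 FPKM under heat plus low oxygen and at 1.52, 1.81 and 0.657 FPKM in the control libraries, a log2 change of 4.66 (SE 0.87, adjusted p = 0.021 in limma's test). It kept its call in 18 of 23 alternatives, losing it without stressed replicates 1 (0.057), 2 (0.071) and 3 (0.052) and control replicates 1 (0.055) and 3 (0.070). The run MSTRG.69765, MSTRG.69766 and MSTRG.69767 rose by 1.16, 1.40 and 1.39 on the log2 scale. MSTRG.69765 was at 92.7, 104 and 112 FPKM under heat plus low oxygen and at 57.8, 46.5 and 35.6 FPKM in the control libraries. All 3 members have long recovered lengths, 18718, 11903 and 7017 bases. Their adjusted p-values in limma's test were 0.024, 0.028 and 0.033, and they kept their calls in 17, 17 and 16 of 23 alternatives. Without stressed replicate 2 the adjusted p-values were 0.083, 0.098 and 0.12. Each was also lost without stressed replicate 1 or 3 (0.0504 to 0.072), without control replicate 3 (0.063 to 0.078) and in the fit of 6 libraries (0.078 to 0.11). MSTRG.69765 was lost without control replicate 2 (0.058), and the other members without control replicate 1 (0.056 and 0.068). MSTRG.69767 was lost with no filter too (0.051). The run MSTRG.92093, MSTRG.92094 and MSTRG.92095 changed by -2.75, -1.95 and -2.45. MSTRG.92095 was at 0.145, 0.458 and 0.324 FPKM under heat plus low oxygen and at 3.70, 5.59 and 2.72 FPKM in the control libraries, and MSTRG.92094 had 0 reads in the stressed libraries. MSTRG.92093 and MSTRG.92095 lost their calls only in the fit of 6 libraries (adjusted p = 0.063 for each, against 0.011 and 0.015 in limma's test of all 12). MSTRG.92094 (adjusted p = 0.034 in limma's test) kept its call in 12 of 22 alternatives. It was lost without stressed replicates 1, 2 and 3 (0.079, 0.10 and 0.085), control replicates 1 and 2 (0.085 and 0.078) and hypoxic replicates 1, 2 and 3 (0.052, 0.053 and 0.0502), in the fit of 6 libraries (0.13) and with a replicate block (0.054).

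As sums, the 504 higher features held 3.98%, 4.79% and 4.62% of the summed FPKM of the libraries under heat plus low oxygen, and 0.930%, 1.06% and 0.980% in the control libraries. The 567 lower features held 1.90%, 1.70% and 1.94% under heat plus low oxygen, and 4.85%, 4.43% and 5.29% in the control libraries. The features were chosen for this difference, so the sums describe its size and test nothing. In the single-stress libraries the higher features took 2.05%, 2.92% and 1.55% under heat alone and 2.84%, 2.64% and 2.23% under low oxygen alone. The lower features took 2.83%, 2.32% and 2.99% under heat alone and 2.97%, 3.09% and 3.13% under low oxygen alone. All 6 single-stress libraries thus lay between the combined and the control libraries in both sums. Choosing features by the difference between those 2 groups itself favours this order, so it is no test of a single-stress response.

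**Figure D4:**
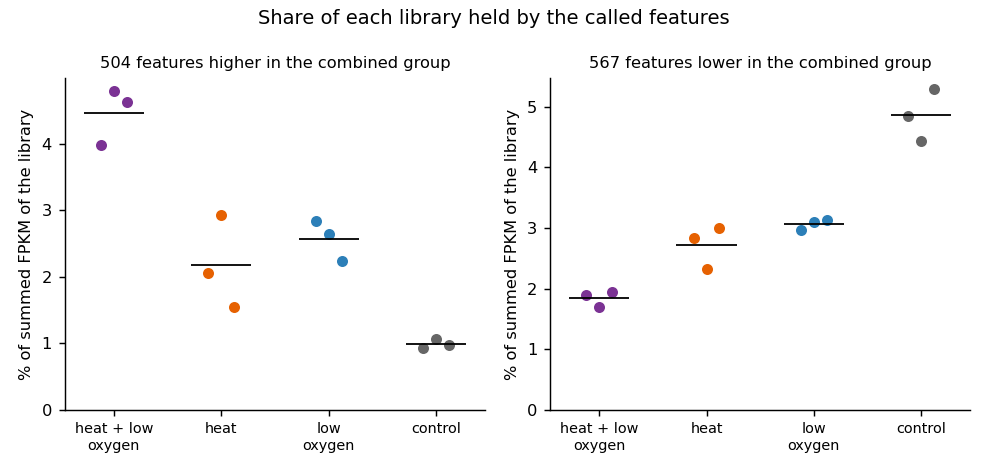
Points give the percent of a library's summed FPKM in the called features, 3 libraries per group, and bars the group means. The 504 higher features (left) take 3.98% to 4.79% in the combined libraries and at most 1.06% in the control libraries. The 567 lower features (right) take at most 1.94% in the combined libraries and at least 4.43% in the control libraries. The single-stress libraries lie between, an order that the choice of features favours.

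Feature by feature, the higher ones had a median log2 change over the control of 1.91 under heat plus low oxygen, 0.91 under heat alone and 1.08 under low oxygen alone. The lower ones had medians of -2.06, -1.02 and -0.92. Over all features tested the medians were -0.01, 0.03 and -0.11. The comparisons use the same 3 control libraries, and the called features were chosen on the first. Of the 1071 features 9 had an adjusted p under 0.05 for heat alone and 110 for low oxygen alone in limma's test. Among all 39735 features tested the numbers were 9 and 216. The filter used only the combined and control libraries, so features present only under a single stress were not tested. These numbers are thus not the whole single-stress response.

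On average fewer features were detected under heat plus low oxygen, and whether the groups overlapped depended on the measure. Features with at least 0.5 FPKM numbered 37827, 38193 and 37427 under heat plus low oxygen, and 39294, 39057 and 38077 in the control libraries. The means were 37816 ± 383 and 38809 ± 645 (SD, n = 3 each), and the ranges overlapped (exact permutation p = 0.20, two-sided, where 3 against 3 libraries can give no less than 0.10). Features with at least 10 recovered reads numbered 36376, 36942 and 36194 under heat plus low oxygen, and 37851, 37471 and 37218 in the control libraries. By that measure the groups did not overlap, and the exact permutation p was 0.10, two-sided, the smallest possible. At 0.1 FPKM the means were 45026 under heat plus low oxygen and 46075 in the control group (exact permutation p = 0.20). At 2 FPKM they were 25842 and 26323 (exact permutation p = 0.50). By both of these measures the ranges overlapped. MSTRG features took 27.3%, 27.3% and 25.1% of the reads under heat plus low oxygen, and 29.2%, 26.8% and 22.7% in the control libraries. The means, 26.6 ± 1.26% and 26.2 ± 3.27% (SD, n = 3 each), differed by less than the spread between control libraries (exact permutation p = 0.80, two-sided).

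The number of calls fell most when 1 of the 6 libraries compared was left out. It was 437, 185 and 449 without replicates 1, 2 and 3 under heat plus low oxygen, 299, 416 and 311 without control replicates 1, 2 and 3, and 676 without hypoxic replicate 2. Leaving out thermal replicates 1, 2 and 3 gave 865, 1158 and 1067 calls, and leaving out hypoxic replicates 1 and 3 gave 752 and 808. By design, fewer libraries in a compared group widen the standard error for a given spread, so this order was to be foreseen. A call can thus be lost with its change unmoved. Without stressed replicate 1, AJAP09677 stayed at -1.19 while its SE went from 0.25 to 0.30. A fit of the 6 libraries alone called 293 features (0.737% of those tested), 166 higher and 127 lower, of which 259 were among the 1071. Limma's voom on reads recovered from the FPKM values called 500 (1.26%), 239 higher and 261 lower, of which 483 were among the 1071. All 3 fits called 164 features, 89 higher and 75 lower, and 7 of the 19 named features were among them. Stressed replicate 2 was the highest stressed library at 223 of the 504 higher features (44.2%), and control replicates 1 and 3 were the highest control libraries at 208 and 228 of the 567 lower ones. In only 5 higher and 8 lower features did 1 library hold over 80% of its group's sum.

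**Figure D5:**
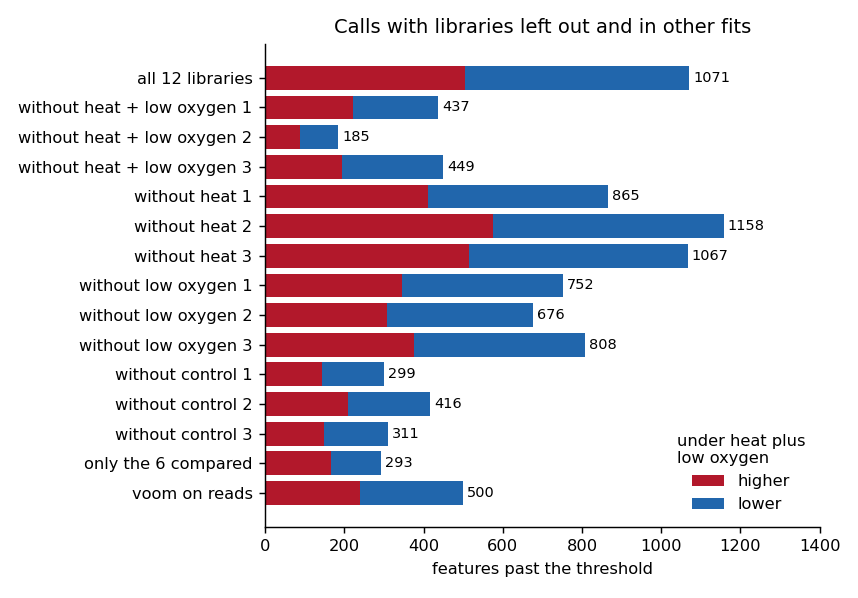
Bars give the number of features past the threshold with all 12 libraries, without each library in turn, in a fit of the 6 libraries compared, and with voom on recovered reads, split into higher (red) and lower (blue) under heat plus low oxygen. The count is lowest, 185, without replicate 2 of the combined group, and higher features make up between 43.0% and 56.7% of the calls in each bar.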

How the data were processed

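The authors deposited 1 table of FPKM values, a column for each library. The submitters' processing notes name DESeq 1.16, Cufflinks, TopHat2 2.0.12 and Bowtie2 2.2.3. The sources used here do not give what each did, the build, the gene models or how reads were counted. Per the labels' protocols the library kit marks strand. Where counting ignored strand, antisense partners cannot be told apart, and near-identical copies may share reads.

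Columns were assigned to libraries through the sample titles. Reads, feature lengths and library totals were recovered as the numbers that make all values of a feature whole reads at 1 shared length. Values within 0.001 of a whole read were taken as whole, which all 59494 features were. With wrong totals 0% of 3000 features were. That check took only features with reads in at least 4 libraries and searched a smaller range of lengths. The 6535 features with reads in under 4 libraries are less certain, and 6 of them were called. Floors and intervals cover counting error only.

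Log2(FPKM + 0.5) was fitted with limma 3.58.1 (R 4.3.3), with a mean per group over all 12 libraries and a variance trend, and Benjamini-Hochberg adjustment over the 39735 features tested. The procedure was also run on simulated reads drawn independently for each feature. The outcome is not given here, so that run lends the calls no support. Named features were called, did not overlap between groups and had a mean of at least 5 FPKM in either group. At most 2 higher and 2 lower were taken by largest log2 change (AJAP and MSTRG apart), largest FPKM difference, smallest p, and highest mean with 0 reads on the other side. Gene lists could not be applied, since identifiers carry no names. The comparison, the rules and the tests were chosen with earlier results of these data known. Alternatives were other pseudocounts, filters and scalings, a fit of 6 libraries, a replicate block, robust variances, voom, and leaving out each library. Permutation tests used Python 3.11.15 and scipy 1.17.1.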

Additional observations from a re-analysis of the deposited data

How the results depend on the processing

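The count of 1071 called features went to 562 with no filter on low values, where 59494 features were tested, to 293 in a fit of the 6 libraries compared, and to 500 with voom. Leaving out 1 library gave 185 to 1158 features. Pseudocounts of 0.1 and 1, filters at 2 FPKM or over the 12 libraries, median-of-ratios and quantile scaling and robust variances gave 881 to 1278. No alternative turned the direction of a named feature. Named features were chosen not to overlap between the groups, so leaving out a library could not turn it. Of 436 values, 355 kept their call and 81 lost it, 56 of these with a library left out. The same replicate numbers in both groups do not pair libraries by the labels. Same-numbered libraries deviated together weakly (r = 0.035, 0.057 and 0.098), though each correlated best with its own number, and a replicate block gave 735 calls. The difference in MSTRG share, 0.358 percentage points, was between -1.40 and 1.83 with a library left out, and that in detected features, -994, between -1360 and -751. Beyond the wider standard error when a compared library is left out, the cause of these movements was not tested.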
